A study of Homo sapiens with 4 samples.

Results

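The DNA loops of human chromosome 2 were examined in POLR2A HiChIP-seq data from HepG2, a hepatocellular carcinoma cell line. HepG2 cells were either mock-treated with water or treated with 20 µM pyridostatin (PDS) for 24 h, with 2 biological replicates per condition, and 1 combined list of loops per condition was analysed. A loop was taken as a member when it lay on chromosome 2 of GRCh38 and had no anchor between 85 and 98 Mb, the segment around the centromere. The rule yielded 10709 of 66417 loops in mock-treated cells (16.1%) and 3324 of 18778 loops in PDS-treated cells (17.7%).

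HiChIP-seq joins DNA fragments that lie close together in the nucleus and then recovers, with an antibody, those bound by a given protein. POLR2A is the catalytic subunit of RNA polymerase II (RNAPII), so that the recovered contacts are those of transcribed genes and their regulatory elements. Guanine quadruplexes (G4s) are DNA structures that form where several runs of guanine lie close together, often in promoters, and PDS is a small molecule that binds them. Each loop has a pair of anchors and a number of paired-end tags (PETs), which are the read pairs that join both anchors. No loop was listed with fewer than 3 PETs, so up to 2 PETs remain possible for a loop that a list lacks. Whether the lists passed any other filter is not known.

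The lists hold no value per replicate, which left the conditions without a replicate spread and without a test. The intervals given below are 95% intervals derived from Wilson limits, and they cover counting error only. Library depths are unknown here, and the PETs were not scaled. The absolute level of a PDS/mock ratio therefore cannot be told apart from a difference in depth, which all windows and genes have in common. Because the lists start at 3 PETs, such a difference need not change the ratio of every window, gene or loop class alike, and this was not tested. As a check of the cell type, 7 of 8 hepatocyte-lineage marker genes had at least 1 mock promoter loop, with 46 loops in all and APOA1 at 0. Of 8 markers of blood cells, fibroblasts and endothelium, 3 had such loops, 19 in all, whereas PTPRC, GATA1, HBG1, COL1A2 and DCN were at 0.

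The sequences that bear on the question of G4s are the predicted G4 motifs next to the start sites of the genes with most loops. A motif was defined as a stretch with 4 runs of G, each at least 3 long and 1 to 7 bases apart, read on both strands. Of the 28 RefSeq promoters of the 12 genes with most mock loops, 13 held a motif within the 250 bases before the start site (46.4%, 29.5 to 64.2%), as against 637 of 2764 promoters on chromosome 2 (23.05%) and 8236 of all 35116 promoters (23.5%). Several of the 28 promoters belong to the same gene, and the genes were picked after their loops were counted. The last places among the 12 were tied, since TNS1, SPATS2L, EVA1A, CRACDL and SLC4A5 all had 22 mock loops, and the tie was settled by mock PETs. Motifs are given for the 7 genes whose motif lay in an anchor with at least 3 mock loops. The motif anchors held only a part of the loops by which these genes were ranked, such as 4 of 37 at MBD5. The SOS1 motifs lay in anchors with 1 mock loop each, of 25 at that gene, and the THADA motif lay in no anchor. The capitals mark the motif, the flanks are 8 bases, and each sequence is read 5′ to 3′ on the strand that carries the G runs (RefSeq promoters and reference genome, GRCh38).
MBD5, chr2:148020764-148020798, minus strand: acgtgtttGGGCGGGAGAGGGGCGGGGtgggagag
RTN4, chr2:55049765-55049813, plus strand: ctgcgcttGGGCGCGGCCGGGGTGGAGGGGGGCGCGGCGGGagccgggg
ACSL3, chr2:222860792-222860828, minus strand: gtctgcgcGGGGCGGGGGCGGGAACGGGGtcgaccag
EPAS1, chr2:46297331-46297365, minus strand: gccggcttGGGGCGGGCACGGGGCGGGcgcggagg
TBC1D8, chr2:101151506-101151550, minus strand: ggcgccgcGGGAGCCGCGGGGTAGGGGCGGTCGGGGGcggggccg
USP34, chr2:61471294-61471326, minus strand: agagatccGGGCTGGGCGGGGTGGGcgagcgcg
TNS1, chr2:217850311-217850354, plus strand: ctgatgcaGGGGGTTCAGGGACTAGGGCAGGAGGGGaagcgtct

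The anchor around the EPAS1 motif (chr2:46296190-46304572) had 7 loops with 28 PETs in mock-treated cells and 3 with 9 PETs in PDS-treated cells. A further TNS1 motif at chr2:218010296-218010334, whose letters are not shown, lay in an anchor with 7 loops (40 PETs) and 2 loops (6 PETs). The RTN4 anchor went from 5 loops to 0, the MBD5 anchor from 4 to 0 and the anchor of the printed TNS1 motif from 3 to 0. The TBC1D8 anchor had 5 loops in mock-treated and 2 in PDS-treated cells, the ACSL3 anchor 4 and 1, and the USP34 anchor 3 and 1. The anchors were chosen for their mock loops, so their lower PDS numbers are no finding. A matching sequence is a description, and G4 structures were not measured in these data.

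A loop is bounded by restriction sites, since chromatin was cut with MboI, which recognises GATC. Of 12036 anchors on chromosome 2, 12035 had this site within 5 bp of both ends. The 40 bases around the inner edges of 2 loops at HNMT and TNS1 are shown with the MboI site in capitals (plus strand of GRCh38).
HNMT loop, end of the first anchor, chr2:138033345-138033384: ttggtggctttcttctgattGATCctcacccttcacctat
HNMT loop, start of the second anchor, chr2:138059063-138059102: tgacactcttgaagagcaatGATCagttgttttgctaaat
TNS1 loop, end of the first anchor, chr2:218024097-218024136: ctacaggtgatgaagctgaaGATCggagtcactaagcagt
TNS1 loop, start of the second anchor, chr2:218025632-218025671: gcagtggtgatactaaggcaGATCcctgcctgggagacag
The anchors had a median width of 6054.5 bp (1154 to 66927 bp), and 42.3% of them held a predicted G4 motif.

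Chromosome 2 carried more mock loops than any other chromosome, and their number was lower after PDS treatment on both arms. The PDS/mock ratio of loop numbers was 0.310 (0.299 to 0.323) and that of PETs was 0.280 (0.274 to 0.286), from 40984 PETs in mock-treated and 11468 in PDS-treated cells. Over all loops of the series the ratio of loop numbers was 0.283, and over the other chromosomes it was 0.277 (0.272 to 0.282). The intervals of chromosome 2 and of the other chromosomes do not overlap, although no replicate check of this difference could be made.

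Loops with many PETs were scarcer after PDS treatment than loops with few. On chromosome 2, 58.7% of the mock loops and 70.8% of the PDS loops had 3 PETs. Mock loops had a mean of 3.83 PETs and a maximum of 17, and PDS loops a mean of 3.45 and a maximum of 13. Counting only loops with at least 5 PETs, 2145 were left in the mock list and 341 in the PDS list, a ratio of 0.159 (0.142 to 0.178). On the other chromosomes this ratio was 0.147 (0.139 to 0.155), and the intervals overlap. Loops with at least 10 PETs numbered 84 and 3. With a fixed minimum of 3 PETs, lower PETs at every loop can also give this pattern. Library depth is unknown, so these values are a description and do not single out strong loops.

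Among chromosomes, chromosome 2 belonged to those with dense loops. The whole chromosome had 45.8 mock loops per Mb, whereas the median of the 22 other chromosomes was 15.9 (0.481 to 89.1). Its ratio of 0.310 was exceeded on 3 chromosomes, namely 14, 20 and 16. The 5 chromosomes 6, 14, 16, 17 and 20 together had 49.5 mock loops per Mb and a ratio of 0.323 (0.315 to 0.331), and the remaining 17 had 13.1 mock loops per Mb and a ratio of 0.237 (0.231 to 0.243). This grouping was made with the loop numbers known, so the values are a description. HepG2 cells are known to carry extra copies of several chromosomes, chromosome 2 among them. Copy number was not measured here, and its part in these loop numbers was not tested.

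**Figure D1:**
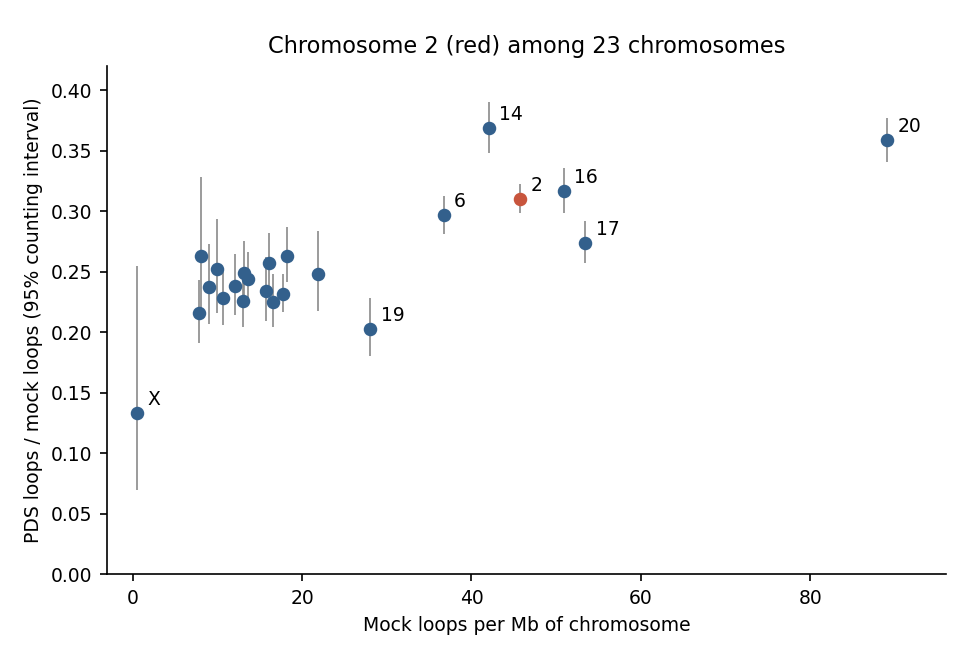
Mock loops per Mb (x axis) and PDS/mock ratio of loop numbers (y axis, with 95% counting intervals) for 23 chromosomes, with all of chromosome 2 in red. Chromosome 2 lies at 45.8 mock loops per Mb and a ratio of 0.310, near chromosomes 6, 14, 16 and 17 and apart from the chromosomes below 30 mock loops per Mb, whose ratios lie between 0.133 and 0.263.

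Both arms had like ratios. On the short arm, 85 Mb were covered by 4246 mock and 1292 PDS loops, a ratio of 0.304 (0.286 to 0.324). On the long arm, 144.194 Mb outside the omitted segment held 6463 mock and 2032 PDS loops, a ratio of 0.314 (0.299 to 0.330). The intervals overlap. Mock loops were somewhat denser on the short arm, with 49.95 per Mb as against 44.8 per Mb on the long arm, and PDS loops numbered 15.2 and 14.1 per Mb.

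Loop density varied along both arms, with several dense stretches separated by sparse ones. Each loop was placed by the midpoint of its span in 1 of 25 windows, 22 of which covered a full 10 Mb. The densest full windows lay at 40 to 50 Mb, with 71.6 mock loops per Mb, at 60 to 70 Mb, with 70.3, and at 20 to 30 Mb, with 67.5. On the long arm the densest were 170 to 180 Mb, with 65.4 mock loops per Mb, and 230 to 240 Mb, with 64.5. The last 2.19 Mb at the tip of the long arm had 77.0 mock loops per Mb and 16.9 protein-coding genes per Mb, the most of any window in both measures.

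The sparsest window was the 5 Mb before the omitted segment, at 80 to 85 Mb, with 60 mock loops (12 per Mb) and 1.0 genes per Mb. Among full windows the lowest densities were found at 140 to 150 Mb, with 28.1 mock loops per Mb and 1.3 genes per Mb, and at 50 to 60 Mb, with 29.4 loops and 2.3 genes per Mb. Across the 22 full windows, genes per Mb and mock loops per Mb had a Pearson r of 0.729 and a Spearman rho of 0.748. Mock and PDS densities had an r of 0.95 and a rho of 0.944, and PDS densities ran from 7.8 to 21.4 loops per Mb. These windows share both lists and are given as a description. The order of the windows was not the same in both measures, and the window at 40 to 50 Mb had the highest loop density of the full windows with 5.0 genes per Mb, close to the median of 4.75.

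**Figure D2:**
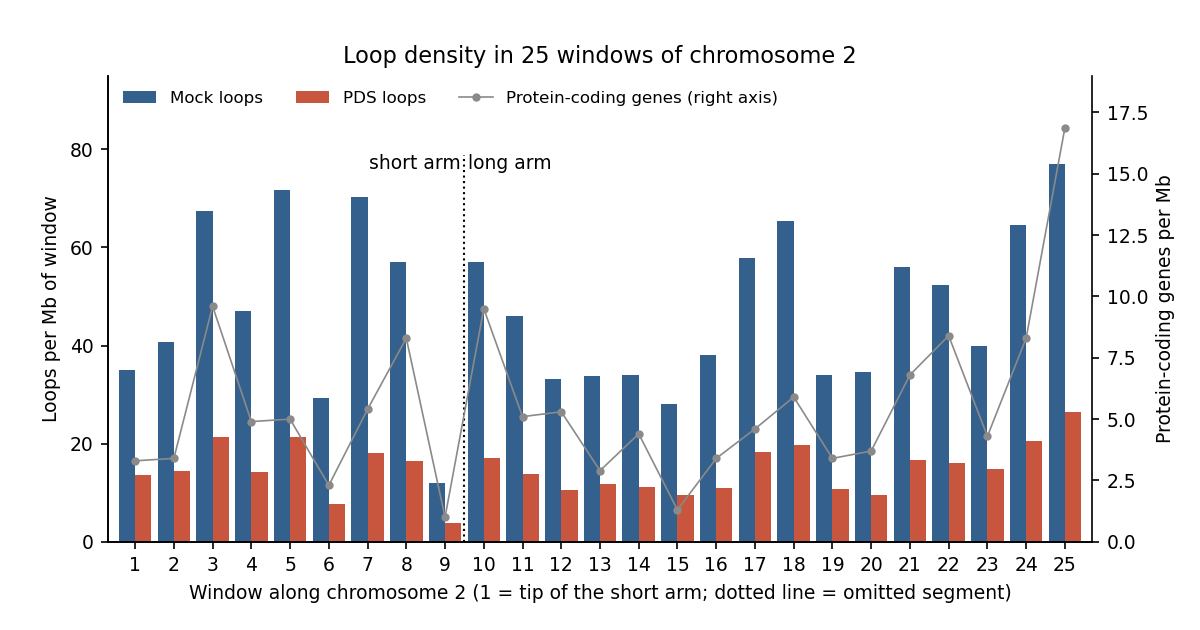
Mock loops (blue) and PDS loops (red) per Mb (left axis) and protein-coding genes per Mb (grey, right axis) in 25 windows of chromosome 2, numbered from the tip of the short arm. In every window the PDS bar is lower than the mock bar, and dense windows are dense in both lists, from 12 mock loops per Mb in window 9 to 77.0 in window 25.

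The PDS/mock ratio varied far less along the chromosome than the density did. All 25 windows had fewer PDS loops than mock loops. Over the full windows the ratio ran from 0.257 to 0.389 with a median of 0.310, a 1.51-fold range, while mock loop density spanned a 2.55-fold range. The highest ratio was found at the tip of the short arm, 0 to 10 Mb, where 350 mock and 136 PDS loops gave 0.389 (0.319 to 0.474). It was followed by 220 to 230 Mb, with 399 and 149 loops and a ratio of 0.373 (0.309 to 0.451), and by 10 to 20 Mb, with 408 and 144 loops and a ratio of 0.353 (0.292 to 0.427).

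The lowest ratios lay on the short arm at 60 to 70 Mb, with 703 and 181 loops (0.257, 0.219 to 0.303), and at 50 to 60 Mb, with 294 and 78 loops (0.265, 0.207 to 0.340). On the long arm the lowest was 190 to 200 Mb, with 347 and 96 loops (0.277, 0.221 to 0.347). From the tip of the short arm inwards, the 7 windows up to 70 Mb had ratios of 0.389, 0.353, 0.317, 0.304, 0.297, 0.265 and 0.257, each below the one before it, although neighbouring intervals overlap throughout. The last windows of the arm broke this order, with 0.288 (0.242 to 0.342) at 70 to 80 Mb and 0.317 (0.190 to 0.528) at 80 to 85 Mb. The long arm had no such order. Other measures did not keep the order of these 7 windows. The PDS/mock ratio of PETs was 0.235 at 50 to 60 Mb and 0.240 at 60 to 70 Mb. Counting only loops with at least 5 PETs, the ratio was 0.123 at 20 to 30 Mb and 0.173 at 40 to 50 Mb. It was then 0.079 at 50 to 60 Mb and 0.175 at 60 to 70 Mb.

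Intervals above the ratio of all loops were found in 3 of the 25 windows, namely the 3 with the highest ratios, as against 7.17% of 251 windows of at least 50 mock loops over all chromosomes. An interval below it was found in 0 windows, as against 13.5% of the 251. For the other 22 windows the interval included the ratio of all loops. Measured against the ratio of chromosome 2 itself, 1 window lay above (0 to 10 Mb), 1 lay below (60 to 70 Mb) and 23 included it. Windows on the other chromosomes had a wider range of ratios, from 0.120 to 0.544 with a median of 0.244 over 226 windows. Those windows are more numerous than the 25 of chromosome 2, and many come from chromosomes with sparser loops. The part of these differences in the wider range was not tested. Across the 22 full windows the ratio had an r of -0.35 (rho of -0.29) with mock loop density and an r of -0.23 (rho of -0.25) with gene density.

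**Figure D3:**
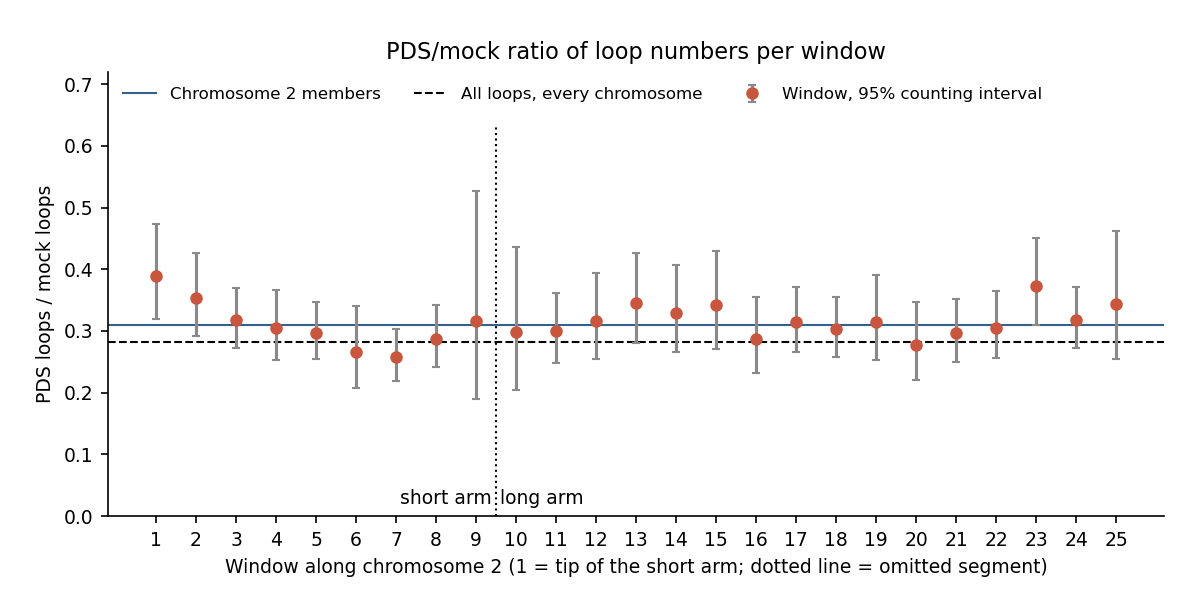
PDS/mock ratio of loop numbers in 25 windows of chromosome 2 (points, bars are 95% counting intervals), with the ratio of chromosome 2 members (0.310, blue line) and of all loops (0.283, dashed line). The intervals of windows 1, 2 and 23 lie above the dashed line, and along the short arm the points descend from 0.389 in window 1 to 0.257 in window 7, then stand at 0.288 and 0.317 in windows 8 and 9.

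The order of windows was not the same when PETs of single loops were compared. For loops present in both lists, a PDS/mock factor of their PETs was estimated from those with 7 to 19 summed PETs, allowing for the minimum of 3. The level of this factor cannot be told apart from a difference in depth either. The factor was 0.504 on chromosome 2 (0.473 to 0.537, 1061 loops) and 0.491 on the other chromosomes (0.475 to 0.506), and these intervals overlap. The short arm had a factor of 0.492 and the long arm 0.513. The window at 0 to 10 Mb had a factor of 0.60 (0.415 to 0.845) and that at 60 to 70 Mb had 0.539 (0.415 to 0.689), so the windows with the highest and lowest loop ratio were not distinguished by it. The lowest factor was 0.258 (0.166 to 0.378, 52 loops) at 200 to 210 Mb, a window with a middling loop ratio of 0.296, and its interval lies below that of the chromosome. The highest was 0.695 (0.487 to 0.974, 35 loops) at 180 to 190 Mb.

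Most mock loops of chromosome 2 were not listed after PDS treatment, and a large part of the PDS loops were not listed in mock-treated cells. Both lists shared 1354 loops with identical anchors, which was 12.6% of the mock loops (12.03 to 13.3%) and 40.7% of the PDS loops (39.1 to 42.4%). With anchors extended by 5 kb on each side, the share of mock loops was 38.2%. Over all chromosomes 11.0% of the mock loops were shared by the stricter rule. On chromosome 2, 9355 loops were listed in mock-treated cells only and 1970 in PDS-treated cells only. Of the 1354 shared loops, 756 had fewer PETs after PDS treatment, 398 had as many and 200 had more.

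The share depended on the number of PETs. Of mock loops with 3 PETs, 6.90% (6.30 to 7.56%) were also listed after PDS treatment, compared with 5.79% (5.54 to 6.05%) on the other chromosomes. With 5 PETs the shares were 19.7% (17.4 to 22.2%) and 18.0% (16.9 to 19.1%), and with at least 10 PETs they were 64.3% (53.6 to 73.7%) and 62.4% (58.2 to 66.4%). The intervals of both groups are apart at 3 and 4 PETs and overlap at every higher count. A loop with more mock PETs can lose more of them and still reach the minimum of 3, so the rise is a description.

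**Figure D4:**
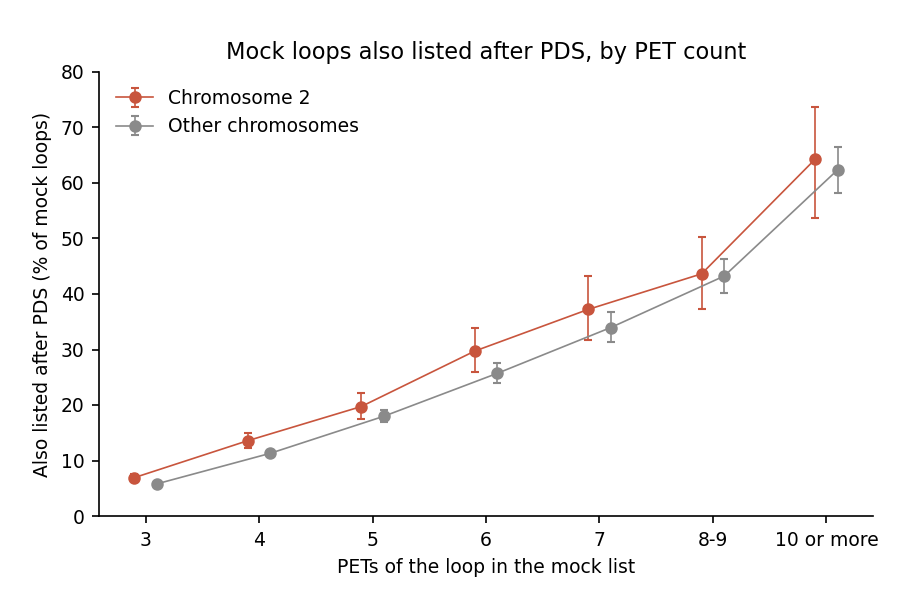
Share of mock loops that were also listed after PDS treatment (y axis, in percent, with 95% Wilson intervals) by their PETs in the mock list (x axis), for chromosome 2 (red) and the other chromosomes (grey). The share climbs from 6.90% at 3 PETs to 64.3% at 10 PETs or more on chromosome 2, and the points of chromosome 2 lie at or a little above those of the other chromosomes.

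Loops on chromosome 2 were mostly short, with a median of 18180.5 bp between anchor midpoints in mock-treated and 17106.5 bp in PDS-treated cells. The ratio was highest for loops of 10 to 20 kb, at 0.367 (0.343 to 0.392), and lowest for loops of 100 to 200 kb, at 0.235 (0.20 to 0.275). On the other chromosomes the same classes had 0.306 and 0.247, and loops of 200 to 2000 kb had 0.303, as against 0.274 (0.233 to 0.322) on chromosome 2. Loops whose anchors were separated by less than 2 kb had a ratio of 0.364 (0.338 to 0.392), and the others 0.293 (0.280 to 0.307).

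Over the chromosome as a whole, loops at promoters had a lower PDS/mock ratio than loops away from promoters, but the short arm alone did not separate them. A promoter anchor was one that overlapped 1 kb on either side of an annotated start site of a protein-coding gene. The mock list held 4185 such loops and the PDS list 1156, which gave a ratio of 0.276 (0.259 to 0.295), and loops with no promoter anchor numbered 6524 and 2168, a ratio of 0.332 (0.317 to 0.349). Promoter loops thus made up 39.1% (38.2 to 40.01%) of the mock list and 34.8% (33.2 to 36.4%) of the PDS list. On the short arm the ratio was 0.283 (0.256 to 0.314) with a promoter anchor and 0.318 (0.294 to 0.343) without, and the intervals overlap. On the long arm the ratios were 0.272 and 0.342, and their intervals are apart. Loops with a promoter at both anchors had a ratio of 0.291 (0.254 to 0.333). This interval overlaps that of loops with no promoter anchor. Of the loops listed after PDS treatment only, 29.9% (27.9 to 32.0%) had a promoter anchor, compared with 41.9% (39.3 to 44.5%) of those in both lists. For loops in both lists the PET factor was 0.489 with a promoter anchor and 0.518 without, and these intervals overlap.

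A predicted G4 motif lay in at least 1 anchor of 72.3% of mock loops and 73.6% of PDS loops on chromosome 2. The ratio was 0.316 (0.302 to 0.330) for loops with a motif and 0.297 (0.275 to 0.320) for loops without one, and the intervals overlap. Away from promoters the ratios were 0.343 (0.323 to 0.363) with a motif and 0.311 (0.285 to 0.339) without. At promoters they were 0.280 (0.260 to 0.301) and 0.262 (0.226 to 0.304). The median anchor width was 8379 bp in loops with a motif and 6409 bp in loops without, and the part of anchor width in these ratios was not tested.

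Of 1161 protein-coding genes on the chromosome outside the omitted segment, 980 (84.4%) had at least 1 promoter loop in mock-treated cells and 661 (56.9%) had 1 in PDS-treated cells. The number of loops was lower after PDS treatment at 891 genes, equal at 67 and higher at 60. Of the 411 genes with at least 5 mock promoter loops, 409 had fewer PDS loops and 57 had none. Their choice by mock loops and the shorter PDS list make such numbers likely, and no share over all chromosomes was computed for them. A ratio of 0.25 or lower was found at 246 of these 411 genes (59.9%), which is close to the 61.4% of 2674 such genes over all chromosomes.

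MBD5 (ENSG00000204406, chr2:148021011-148516971), which encodes a methyl-CpG-binding domain protein and is known for its role in neurodevelopment, had the most promoter loops. It had 37 loops with 151 PETs in mock-treated cells and 5 loops with 19 PETs in PDS-treated cells, a ratio of 0.135 (0.055 to 0.333). The interval of this gene includes the ratio of the whole chromosome. RTN4, the gene of the endoplasmic reticulum protein Nogo, was next with 29 loops (125 PETs) in mock-treated and 6 (22 PETs) in PDS-treated cells. THADA, a gene first described in thyroid adenomas, went from 24 loops (97 PETs) to 3 (11 PETs).

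EPAS1, which encodes the hypoxia-inducible factor HIF-2α, had 27 loops (124 PETs) in mock-treated cells and 14 (52 PETs) in PDS-treated cells, the most of any gene in the PDS list. ACSL3, a long-chain acyl-CoA synthetase of lipid droplets, had 27 loops (134 PETs) and 10 (37 PETs). The Ras activator SOS1 had 25 loops (117 PETs) and 10 (40 PETs), and the kinase gene ROCK2 had 25 (115 PETs) and 10 (40 PETs).

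MAP4K4, also a kinase gene, had 24 loops (108 PETs) in mock-treated and 5 (17 PETs) in PDS-treated cells. TBC1D8 had 23 and 6 loops, the deubiquitinase gene USP34 23 and 8, the focal adhesion gene TNS1 22 and 8, and SPATS2L 22 and 6. All 12 genes had fewer loops in the PDS list, which their choice by mock loops makes likely. CUL3, the scaffold of a family of ubiquitin ligases, had 14 mock and 9 PDS loops.

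**Figure D5:**
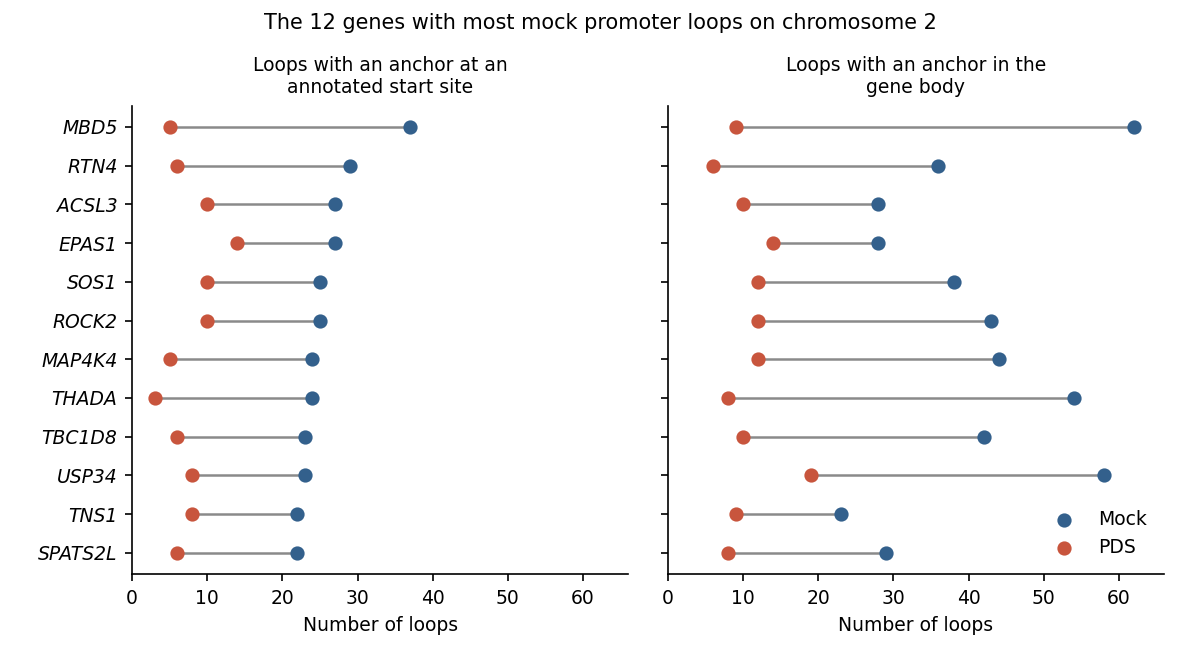
Number of loops of the 12 genes with most mock promoter loops on chromosome 2, in mock-treated (blue) and PDS-treated (red) cells, counted at annotated start sites (left) and anywhere in the gene body (right). The PDS point lies to the left of the mock point for all 12 genes in both panels, with the widest gap at MBD5, from 37 to 5 loops at start sites and from 62 to 9 in the gene body.

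This ranking depends on the annotation of start sites. The 12 genes had a median of 17 annotated start sites and a median length of 187 kb, whereas all genes had medians of 6 and 45.6 kb, and start sites and mock loops had a Spearman rho of 0.422 across genes. With the gene start alone, MBD5 was left with 4 mock loops and 0 PDS loops, and 0 of the 12 genes stayed among the first 12. The first place then went to the calmodulin gene CALM2, with 14 mock and 1 PDS loops (59 and 3 PETs), at an anchor shared with an overlapping gene model. Among the genes that followed were ID2, an inhibitor of helix-loop-helix transcription factors, with 13 and 4 loops, and the small GTPase gene RHOB, with 12 and 4. ZFP36L2, whose product promotes mRNA decay, had 12 mock loops (45 PETs) and 0 PDS loops, and the caveolae gene CAVIN2 had 11 (45 PETs) and 0. CALM2, ZFP36L2 and CAVIN2 were picked after their values were seen.

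When every loop with an anchor in the gene body was counted, MBD5 remained first with 62 mock and 9 PDS loops. USP34 (58 and 19), WDPCP (55 and 14), EML4 (54 and 18) and THADA (54 and 8) followed. Per 100 kb of gene body, EML4, which encodes a microtubule-associated protein, had 33.1 mock loops, ACSL3 had 33.5 and MBD5 had 12.5. WDPCP was likewise picked after its values were seen.

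A broad list of liver genes had loop numbers much like those of all protein-coding genes. Of its 35 genes, mostly for secreted liver proteins, lipid handling and metabolism, 28 had a mock promoter loop. The list also holds genes outside these groups, such as the regulator gene NFE2L2, and not all are particular to liver. Loop numbers were lower after PDS treatment at 24, equal at 4 and higher at 1, and 6 had no loop in either list. Summed over the list, 158 mock and 43 PDS loops gave a ratio of 0.272, beside 0.271 for all protein-coding genes (5061 and 1372). Genes that share an anchor share its loops in these sums.

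Among them, FN1, which encodes fibronectin, had 12 mock and 4 PDS loops, and CPS1, the first enzyme of the urea cycle, had 10 and 3. LPIN1, a phosphatidate phosphatase, had 11 and 1, and NFE2L2, the gene of the oxidative stress regulator NRF2, had 17 (66 PETs) and 3 (10 PETs). The fructose-metabolising enzyme gene KHK and the sterol hydroxylase gene CYP27A1 had 7 and 3 each, the coagulation inhibitor gene TFPI 6 and 1, and the sterol transporter gene ABCG8 5 and 0. APOB, the protein core of low-density lipoprotein, had 3 and 1 promoter loops but 18 and 5 in its gene body. As in the ranking above, promoter loops of all gene lists were counted at every annotated start site. At the gene start alone, mock loops numbered 0 at NFE2L2 and ABCG8, 1 at FN1 and TFPI, and 2 at CPS1 and LPIN1. They numbered 6 at KHK and CYP27A1 and 3 at APOB.

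Housekeeping genes had 170 mock and 37 PDS promoter loops in all, a ratio of 0.218. Of the 40 genes, 33 had a mock loop, and loop numbers were lower after PDS treatment at 32, higher at 2 and 0 in both lists at 6. Over all 1161 protein-coding genes, 980 had a mock loop, loop numbers were lower at 891 and higher at 60, and the ratio was 0.271. HDLBP, an RNA-binding protein, had 19 mock and 4 PDS loops, the proteasome activator gene PSME4 14 and 2, the splicing factor gene SRSF7 11 and 1, the nuclear export receptor gene XPO1 10 and 1, and the RNA-binding protein gene HNRNPA3 9 and 1. The proteasome subunit gene PSMD1 had 9 and 4.

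Developmental transcription factor genes, most of which are not known for expression in liver cells, had 85 mock and 27 PDS promoter loops and a ratio of 0.318, beside the 0.271 and the 891 of 1161 genes with fewer loops given above for all genes. Of 30 such genes, 21 had fewer PDS loops, 2 as many, 2 more and 5 none at all. ID2 had the most, and the zinc finger gene SP9 had 8 and 2 and PAX8 6 and 2. The neighbouring HOXD genes share anchors, and none of those measured had more than 4 mock loops.

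Genes of neurons and muscle had 86 mock and 33 PDS promoter loops and a ratio of 0.384, beside 0.271 for all protein-coding genes. Of 24 genes, 17 had fewer PDS loops, 4 as many, 1 more and 2 none. Neighbouring genes of these lists share loops, so the sums have no counting interval and the ratios of the lists were not told apart by a test. The sodium channel genes SCN2A and SCN3A had 9 and 3 loops each, SCN1A 8 and 1 and SCN9A 5 and 4. GAD1, which makes the neurotransmitter GABA, had 9 and 3, and NEB, the gene of the muscle protein nebulin, had 12 (39 PETs) and 3 (14 PETs).

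The strongest mock loops of the chromosome differed in what was left of them after PDS treatment. The loop with most PETs within a gene joined chr2:148040484-148066256 and chr2:148071946-148085500 in MBD5, with 17 PETs in mock-treated and 4 in PDS-treated cells. A loop in a stretch with no protein-coding gene, chr2:200189430-200228489 to chr2:200229526-200248882, also had 17 PETs in mock-treated cells, and 6 after PDS treatment. The loop within EML4 (chr2:42175987-42186994 to chr2:42188609-42197696) had 15 and 10 PETs and was second in the PDS list.

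By contrast, the loop at the promoters of TNS1 and RUFY4 (chr2:218004454-218024116 to chr2:218025652-218037844) had 15 PETs in mock-treated cells and was not listed after PDS treatment. If the minimum of 3 PETs was the only filter, it had at most 2 there. A loop of 14 PETs at chr2:21322640-21327326 to chr2:21327918-21339059, with no protein-coding gene in its anchors, and loops of 13 PETs in ASXL2 and at the promoter of HNRNPLL were not listed either. ASXL2 encodes a chromatin regulator and HNRNPLL a regulator of splicing, and both were picked after their values were seen. Loops of 13 PETs at ROCK2 and ACSL3 were left with 3 PETs each.

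Some loops had more PETs after PDS treatment. The strongest loop of the PDS list (chr2:138002935-138033364 to chr2:138059083-138074309) had its first anchor over the end of HNMT, the gene of histamine N-methyltransferase (chr2:137964020-138016364), and its second beyond the gene. It had 9 PETs in mock-treated and 13 in PDS-treated cells, while the promoter loops of this gene numbered 12 and 1. A loop whose anchors both overlapped FRZB, which encodes a secreted Wnt antagonist, had 3 and 10 PETs, although most of its first anchor lay outside the gene. Loops at HS6ST1, a heparan sulfate sulfotransferase gene, had 5 and 9 PETs, at the acyltransferase gene MBOAT2 6 and 8, and at SOS1 3 and 8. A loop with 1 anchor over part of APOB and the other outside the gene had 5 and 8. A loop at EIPR1 had 8 PETs in PDS-treated cells and was not listed in mock-treated cells. These loops were picked as the strongest of the PDS list, so their higher PETs there are a description.

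A few anchors gathered many loops. The anchor with most loops at a gene, chr2:101801650-101825929 in MAP4K4, took part in 17 mock loops and 3 PDS loops. Anchors with no protein-coding gene at chr2:226688326-226719423 and chr2:234684567-234703983 also had 17 mock loops each, and 6 and 4 PDS loops. The CALM2 anchor had 14 and 1, an RTN4 anchor 14 and 4 and a SOS1 anchor 14 and 5. Over the chromosome, 10787 anchors in mock-treated cells had 1.99 loops each on average, and 4999 anchors in PDS-treated cells had 1.33. On the other chromosomes these means were 1.78 and 1.29. A shorter list makes fewer loops per anchor likely. The single anchors above were picked by their mock loops, so their lower PDS numbers are a description.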

How the data were processed

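POLR2A HiChIP-seq was measured in 4 libraries. Per the labels and the study's methods, the authors digested chromatin with MboI and processed paired-end reads against GRCh38 with HiC-Pro 3.1.0. They deposited 1 list of loops per condition with unscaled PET counts. The tool that set the anchors, how replicates were combined and the library depth are not given in the sources used here, so small counts limit the precision of single loops and genes. Members, gene lists and tests were chosen with earlier results of these data known.

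Windows and genes were counted from the lists, with GENCODE 44 start sites. Ratios have 95% intervals obtained by turning the Wilson limits of PDS/(mock + PDS) into ratios. Loops were shared when both anchors overlapped by at least 1 bp. Named were the 12 genes with most mock promoter loops, the 8 with most PDS promoter loops, the 6 with most mock PETs, genes at the 8 strongest loops of each list, and list members with at least 5 mock promoter loops. A few genes that this rule names are not reported here. The HOXD genes and others said to be so were named outside this rule. Statistics were tested on simulated data. Alternatives changed PET minimum, distance, window, overlap, promoter and motif definitions. Software comprised Python 3.11.15, numpy 2.4.6, pandas 2.3.3, scipy 1.17.1 and matplotlib 3.10.9.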

Additional observations from a re-analysis of the deposited data

Results flagged for a closer look

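The omitted segment of chromosome 2, 85 to 98 Mb, held signal outside the comparisons above, with 376 mock loops and 114 PDS loops and a ratio of 0.303 (0.246 to 0.374). Its strongest loop, chr2:90286657-90300352 to chr2:91496695-91530044, had 43 PETs in mock-treated and 28 in PDS-treated cells, more than any loop on the rest of the chromosome, where the highest counts were 17 and 13. How much of this segment consists of repeated sequence was not tested.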

How the results depend on the processing

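Of the 53 alternatives computed, 32 moved a result and 21 left it much the same. No PDS/mock ratio rose above 1, which the much shorter PDS list makes likely beforehand. The size of the ratio moved with the loops counted. With at least 4 PETs it was 0.220 on chromosome 2, 0.226 on the short arm and 0.216 on the long arm, and with at least 5 PETs it was 0.159, 0.163 and 0.156. With PETs in place of loops it was 0.280, 0.276 and 0.283. Loops up to 20 kb gave 0.330, 0.326 and 0.333, and loops over 20 kb gave 0.288, 0.281 and 0.292. With at least 5 PETs the windows with the highest and the lowest ratio had 0.297 and 0.175. The range of window ratios, 1.51-fold, ran from 1.36 with 20 Mb windows to 2.06 with at least 4 PETs. The share of mock loops also listed after PDS treatment was 38.2% with anchors extended by 5 kb and 7.09% with at least 5 PETs in both lists. The share of loops with a promoter anchor in the mock and PDS lists was 42.6% and 37.8% with 2500 bp around start sites, 16.8% and 13.5% with the gene start only, and 54.9% and 52.0% with all gene types. The share with a G4 motif was 85.9% and 87.1% with spacers of 1 to 12 bases, and 34.1% and 34.2% within 1 kb of the anchor midpoint. MBD5 had 62 mock loops over its gene body and 4 at its gene start, an alternative chosen after seeing the data. No paired analysis was possible because the replicates were combined in 1 list per condition, and leaving out each replicate was not run for the same reason. With a minimum of 3 PETs and unknown depth, a loop missing from a list is not shown to be absent.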
